A study of Mus musculus with 9 samples.

Results

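The genes described here are 29 genes of cholesterol synthesis, uptake, storage and export, chosen by name, out of 55536 genes listed for each of 9 mouse ovary libraries. They comprise 17 enzymes that build cholesterol from acetyl-CoA (7 of the mevalonate steps and 10 of the squalene and sterol steps), 5 regulators, 4 genes of sterol uptake and transport, 1 of storage and 2 of efflux. All 29 passed the filter on low counts. RNA-seq, which counts fragments of messenger RNA gene by gene, was done on dissected ovaries of 3 groups with 3 libraries each. The wild-type group has the genotype FOXL2 WT/WT. The hyperplasia group and the granulosa cell tumour group both carry the genotype FOXL2 WT/C134W, a heterozygous amino acid change in the granulosa cell transcription factor FOXL2, and differ in the labelled disease state. The labels give no age, strain or animal. P-values therefore measure the spread between these samples, which may be technical. The titles of hyperplasia 3 and tumour 3 share a stem, and the labels do not say what it marks. The comparison asked how sterol supply genes differ between normal ovary, hyperplastic ovary and tumour.

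Cholesterol is made in the endoplasmic reticulum from acetyl-CoA through mevalonate, isoprenoids, squalene and lanosterol. When membrane sterol is low, SCAP carries the SREBP transcription factors to the Golgi, where they are cut and released to switch on the synthesis enzymes together, and when sterol is high the INSIG proteins hold SCAP back. Steroid-making cells of the ovary, above all luteal cells, take up, make and store cholesterol as esters, because it is the starting material of progesterone and oestrogens.

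Library totals ran from 11661851 counts (tumour 3) to 20890537 counts (wild type 1), and each of the 29 genes stood above 3 counts in every library. Levels are given as CPM, counts scaled to the library total and by TMM, which compare 1 gene between libraries. Wild type 1 and tumour 2 stood apart. Across genes, wild type 1 correlated with the other 8 libraries at r = 0.848 to 0.912 and tumour 2 at 0.857 to 0.891, against 0.892 to 0.970 for the remaining pairs. In wild type 1 shorter genes were relatively higher (Spearman correlation of deviation with gene length −0.57, across genes), and in tumour 2 likewise at −0.26, against 0.07 to 0.36 in the other 7. Hyperplasia 3 was closer to tumour 3 (r = 0.970) and tumour 1 (0.954) than to hyperplasia 1 and 2 (0.946 each). Of the ovarian cell markers, 7 granulosa genes were summed. Their summed level was 1369 to 2897 CPM among wild types, 914 to 2777 among hyperplasias and 3705 to 4525 among tumours. Inha alone stood at 2214, 757 and 1414 CPM in wild types and at 2402, 2820 and 3021 in tumours. Nr5a2 in tumour 2 (168 CPM) and Cyp19a1 in tumour 1 (2.18 CPM) lay below all wild types. Fshr was at 0 in tumour 2, and Foxl2 was above 0 in all 9 libraries.

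Most cholesterol synthesis genes stood lower in tumours than in wild-type ovaries, with the deepest differences in Tm7sf2, Idi1 and Fdps, but no single gene passed the test over all genes. The fitted difference was below 0 for 24 of 29 genes and for 15 of 17 enzymes, where 49.1% of all genes tested were below 0. The median log2 fold change was −1.26 for the 29 genes and −1.63 for the 17 enzymes, against 0.01 for all 16213 genes tested. The exceptions above 0 were Mvk, Sc5d, Scap, Insig2 and Lrp1. In whole ovary RNA, fewer cells of a type and less RNA per cell cannot be told apart.

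By edgeR's quasi-likelihood test at 0.05 after Benjamini-Hochberg adjustment over all genes (edgeR adjusted p throughout), 0 of the 29 genes passed, with a background of 1.6% of all genes (57 higher and 202 lower). At an unadjusted p under 0.05, 12 of 29 genes were lower and 0 higher, where 11.7% of all genes were lower, 8.41% higher and 20.1% either. The 3 tumours lay below all 3 wild types for 14 of 29 genes and above them for 0, where the same held for 13.4% of all genes below, 10.6% above and 24.1% either way. DESeq2 called 6 of the 29, all lower (Hmgcs1, Idi1, Fdps, Sqle, Cyp51 and Msmo1), where it called 1747 of all 16213 genes (604 higher and 1143 lower). With limma-voom, 0 of the 29 were called, against 271 of all genes. Without wild type 1 the median was −0.72 for the 29 genes and −0.94 for the enzymes, and without both wild type 1 and tumour 2 it was −1.01 and −1.04. Without tumour 3, 6 of the 29 genes had an unadjusted p under 0.05 by edgeR, where 3147 of all 16694 genes tested did.

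**Figure D1:**
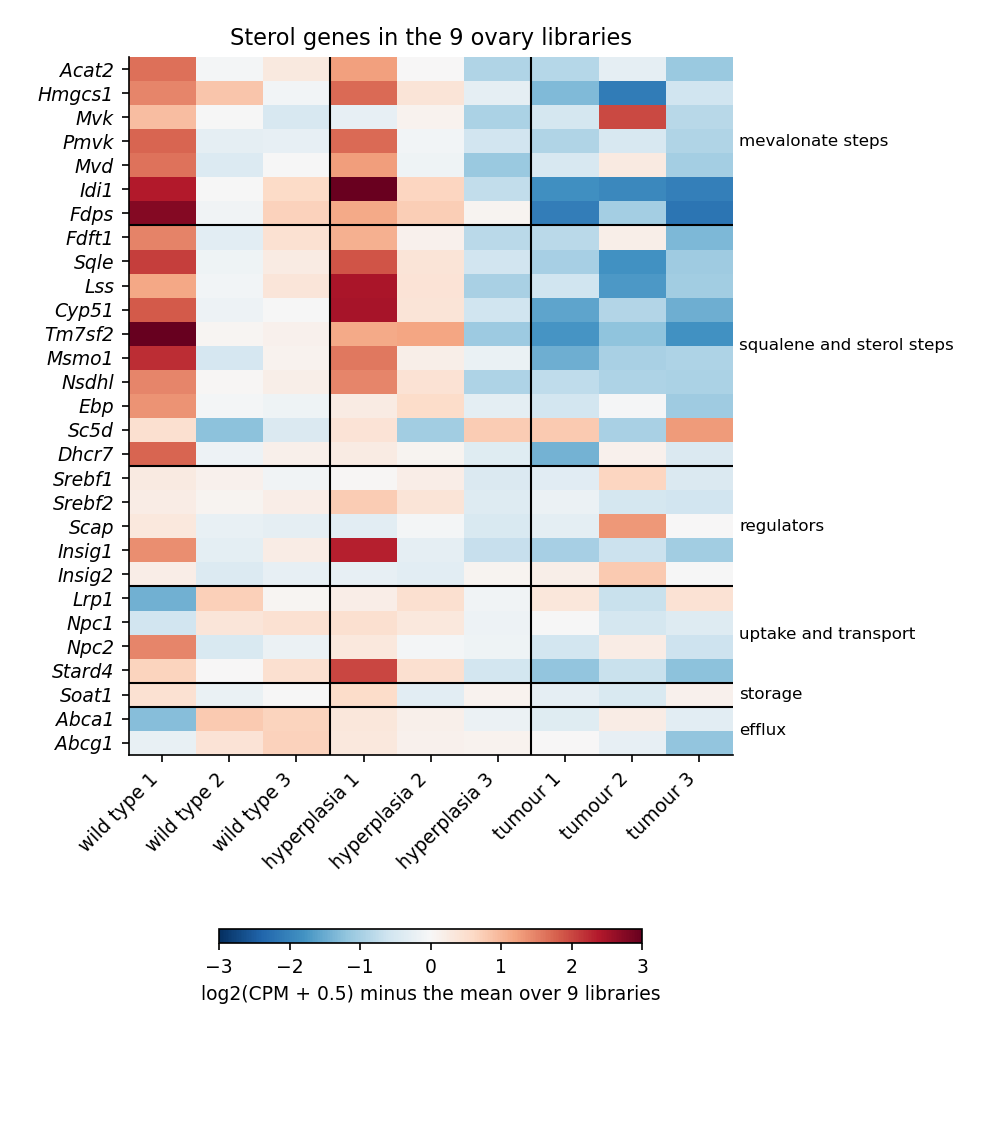
Each row is 1 of the 29 sterol genes and each column 1 of the 9 libraries, and the colour gives log2(CPM + 0.5) minus the mean over the 9 libraries, from −3 (blue) to 3 (red). Most enzyme rows are red in wild type 1 and hyperplasia 1 and blue in the 3 tumours. Insig1 follows that order, and Srebf2 follows it by a smaller margin, while Sc5d, Lrp1, Srebf1, Scap and Insig2 do not.

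The promoter windows of 5 genes are printed. SREBP and its partner NF-Y are known to drive the synthesis enzymes, and their part in the levels seen here was not tested. Windows run from 250 bases before to 50 bases after the RefSeq transcription start (GRCm38.p6), and 23 of the 29 genes, 14 of them enzymes, were matched. The sterol regulatory element TCACNCCAC, the NF-Y box CCAAT and the E-box CACGTG were searched on both strands. Capitals mark CCAAT, or ATTGG where the box lies on the other strand, and TCACNCCAC, and the E-box is not marked. Hmgcs1 was the only 1 of 23 genes with TCACNCCAC, at chr13:119690101-119690400 on the plus strand, and it also held 4 CCAAT boxes, none overlapping that element.
Hmgcs1: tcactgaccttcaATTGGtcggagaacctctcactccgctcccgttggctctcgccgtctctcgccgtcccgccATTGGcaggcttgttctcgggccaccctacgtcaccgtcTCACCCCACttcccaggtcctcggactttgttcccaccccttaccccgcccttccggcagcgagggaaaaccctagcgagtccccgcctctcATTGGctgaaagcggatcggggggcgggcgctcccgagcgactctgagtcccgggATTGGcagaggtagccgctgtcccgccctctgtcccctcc
Idi1 and Msmo1, both lower in all tumours than in any wild type, had 2 and 3 CCAAT boxes (chr13:8885356-8885655, plus strand, and chr8:64733529-64733828, minus strand).
Idi1: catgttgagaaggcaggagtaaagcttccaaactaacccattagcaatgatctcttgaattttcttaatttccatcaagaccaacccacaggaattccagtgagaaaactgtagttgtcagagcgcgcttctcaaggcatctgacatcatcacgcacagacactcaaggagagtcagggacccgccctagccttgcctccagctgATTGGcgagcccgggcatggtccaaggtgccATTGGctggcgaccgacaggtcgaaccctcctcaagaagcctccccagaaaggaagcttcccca
Msmo1: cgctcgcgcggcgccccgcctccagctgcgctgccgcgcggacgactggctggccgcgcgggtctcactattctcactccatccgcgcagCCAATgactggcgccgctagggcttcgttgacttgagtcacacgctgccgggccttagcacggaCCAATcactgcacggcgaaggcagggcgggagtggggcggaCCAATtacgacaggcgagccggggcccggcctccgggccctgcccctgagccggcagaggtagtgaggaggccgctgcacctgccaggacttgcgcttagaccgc
Insig1, the sterol-sensing regulator that stood lower with the enzymes, and Sc5d, the sterol enzyme that did not, each had 1 CCAAT box (chr5:28071162-28071461, plus strand, and chr9:42264251-42264550, minus strand).
Insig1: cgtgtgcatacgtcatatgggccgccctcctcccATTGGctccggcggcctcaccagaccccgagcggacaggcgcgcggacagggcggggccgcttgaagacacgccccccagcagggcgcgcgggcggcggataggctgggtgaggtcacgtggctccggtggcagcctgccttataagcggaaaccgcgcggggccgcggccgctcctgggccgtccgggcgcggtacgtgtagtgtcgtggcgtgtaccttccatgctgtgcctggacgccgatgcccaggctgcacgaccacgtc
Sc5d: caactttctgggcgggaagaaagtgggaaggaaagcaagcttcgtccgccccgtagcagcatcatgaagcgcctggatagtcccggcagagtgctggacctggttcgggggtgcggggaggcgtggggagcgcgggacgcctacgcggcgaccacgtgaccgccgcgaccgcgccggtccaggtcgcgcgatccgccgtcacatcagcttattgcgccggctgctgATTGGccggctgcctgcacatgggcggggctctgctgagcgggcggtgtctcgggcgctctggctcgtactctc
At least 1 CCAAT box was found in 19 of 23 genes and in 13 of 14 enzymes, against 41.06% of 27025 genes with a window in the table. Mvk, fitted above 0 in tumours, held 5 boxes, and 1 window of Insig2, also fitted above 0, held 3. Acat2, with all tumours below all wild types, held 0. These examples were chosen after their values were seen. TCACNCCAC was found in 1 of 23 genes against 1.44% of all genes. The E-box CACGTG, which SREBP1 is also known to bind, was found in 5 of 23 genes and 2 of 14 enzymes, against 8.09% of all genes. A match describes the letters in the window and not a bound site, and a window without the letters tells nothing of the factor. Genes with several starts had several windows (31 windows for 23 genes), which raises their chance of a match.

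Of the 7 mevalonate genes, 6 stood lower in tumours and 5 had all tumours below all wild types. Over all genes tested, 49.1% stood lower and 13.4% had all tumours below all wild types. Fdps (chromosome 3, 89093588 to 89101959, GRCm38), which makes farnesyl diphosphate, stood at 817, 113 and 196 CPM in wild types 1 to 3, at 269, 205 and 128 in hyperplasias 1 to 3 and at 28.3, 60.2 and 26.1 in tumours 1 to 3. All 3 tumours lay below all 6 other libraries, and wild type 1 was far above its group. The tumour mean was 38.2 ± 19.1 CPM against 375 ± 385 in wild type (SD, n = 3 each), with a log2 fold change of −3.30 (SE 0.74, edgeR adjusted p = 0.0614), the smallest adjusted p of the 29 genes. Expected counts of Fdps were not whole in all 9 libraries, as happens when RSEM splits reads between genes, and Gm43738 overlaps it on the same strand by 1124 bases but was at 0 in 8 libraries and at 0.149 CPM in wild type 1.

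Idi1 (chromosome 13, 8885501 to 8892451), the isomerase that makes dimethylallyl diphosphate, stood at 308, 57.5 and 87.8 CPM in wild types, at 459, 91.4 and 34.8 in hyperplasias and at 15.9, 15.02 and 13.8 in tumours. The tumours were nearly equal and lay below all 6 other libraries, while the hyperplasias spanned 13.2-fold, from hyperplasia 3 at the bottom to hyperplasia 1 at the top. The log2 fold change between tumour and wild type was −3.34 (SE 0.96, edgeR adjusted p = 0.101), with means of 14.9 ± 1.06 and 151 ± 137 CPM (SD, n = 3). Hmgcs1 (chromosome 13, 119690379 to 119708260), which condenses acetyl-CoA units to HMG-CoA, stood at 885, 571 and 305 CPM in wild types, at 1044, 423 and 268 in hyperplasias and at 129, 75.5 and 212 in tumours. Tumours lay below all 6 other libraries here too, tumour 3 and hyperplasia 3 being the nearest pair. The means were 587 ± 290.3 CPM in wild type and 139 ± 68.9 in tumours (SD, n = 3), and the log2 fold change was −2.08 (SE 0.61, edgeR adjusted p = 0.109). Expected counts of Idi1 and of Hmgcs1 were not whole in 8 libraries each, so their levels are uncertain too.

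Acat2, the cytosolic thiolase at the start of the pathway, stood at 101, 30.6 and 39.3 CPM in wild types, at 75.1, 32.2 and 16.8 in hyperplasias and at 17.5, 26.3 and 14.4 in tumours. Tumours lay below all wild types, while hyperplasia 3 lay among the tumours. Its log2 fold change was −1.55 (SE 0.60, edgeR adjusted p = 0.196), and its expected counts were not whole in all 9 libraries, so its level is uncertain. Mvk, mevalonate kinase, stood at 47.8, 24.7 and 17.8 CPM in wild types, at 20.9, 26.5 and 12.7 in hyperplasias and at 17.1, 99.8 and 13.8 in tumours. Tumour 2 was the highest of the 9 libraries, and the other 2 tumours lay below all wild types. Its fitted difference of 0.53 (SE 0.72, edgeR adjusted p = 0.734) had the opposite sign without tumour 2, at −0.96. Pmvk and Mvd, the kinase and decarboxylase that follow, stood 1.55 and 1.02 lower on the log2 scale (edgeR adjusted p = 0.27 and 0.469), Pmvk with all tumours below all wild types and Mvd with tumour 2 above wild types 2 and 3.

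Of the 10 squalene and sterol genes, 9 stood lower in tumours (49.1% of all genes) and 6 had all tumours below all wild types (13.4% of all genes). Tm7sf2 (chromosome 19, 6062821 to 6068373), a sterol C14 reductase, stood at 102, 9.95 and 10.5 CPM in wild types, at 21.6, 22.2 and 4.22 in hyperplasias and at 2.45, 3.80 and 2.35 in tumours. Tumours lay below all 6 other libraries, and wild type 1 stood 10.3-fold above the lowest wild type. The log2 fold change of −3.84 (SE 1.03, edgeR adjusted p = 0.0884), with means of 40.9 ± 53.2 and 2.87 ± 0.811 CPM (SD, n = 3), was −1.83 without wild type 1. Vps51 overlaps Tm7sf2 on the same strand by 532 bases and stood at 37.4 to 65.3 CPM in the 9 libraries, so reads of this stretch may be split uncertainly. Expected counts of Tm7sf2 were not whole in 7 libraries. Sqle (chromosome 15, 59315077 to 59331192), squalene epoxidase, stood at 203, 43.8 and 56.9 CPM in wild types, at 179, 63.7 and 32.0 in hyperplasias and at 24.0, 13.4 and 22.8 in tumours. Tumours lay below all other libraries, and the log2 fold change was −2.33 (SE 0.74, edgeR adjusted p = 0.128).

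Cyp51 (chromosome 5, 4081145 to 4104746), lanosterol demethylase, stood at 307, 76.8 and 85.5 CPM in wild types, at 483, 112 and 56.5 in hyperplasias and at 28.3, 46.6 and 30.7 in tumours. Msmo1 (chromosome 8, 64718139 to 64733792), the sterol C4 methyl oxidase, stood at 614, 93.9 and 143 CPM in wild types, at 398, 151 and 115 in hyperplasias and at 48.2, 67.0 and 69.3 in tumours. For both genes every tumour lay below every wild type and hyperplasia, and library 1 was the highest of the wild types and of the hyperplasias. The log2 fold changes were −2.15 (SE 0.81) and −2.21 (SE 0.72), with edgeR adjusted p = 0.185 and 0.136. Nsdhl, which acts after Msmo1 in C4 demethylation, stood at 67.1, 24.6 and 27.0 CPM in wild types, at 67.2, 32.5 and 12.5 in hyperplasias and at 13.9, 12.3 and 12.2 in tumours. Tumours lay below all wild types, with hyperplasia 3 at tumour level, and the log2 fold change was −1.63 (SE 0.59, edgeR adjusted p = 0.168). Cyp51 overlaps Akap9 on the opposite strand by 166 bases, and the sources used here do not state whether counting used strand. Expected counts of Cyp51 were not whole in 5 libraries.

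Lss, lanosterol synthase, stood at 73.4, 30.7 and 42.2 CPM in wild types, at 179.7, 43.6 and 16.4 in hyperplasias and at 21.45, 9.56 and 15.5 in tumours. All tumours lay below all wild types, but hyperplasia 3 lay between tumours 1 and 3. The log2 fold change was −1.65 (SE 0.76, edgeR adjusted p = 0.267). Dhcr7, the last reductase on the way to cholesterol, stood at 215, 56.9 and 70.6 CPM in wild types, at 74.7, 67.7 and 49.2 in hyperplasias and at 23.4, 69.6 and 47.0 in tumours. Its groups overlapped through tumour 2. Ebp, the sterol isomerase, and Fdft1, squalene synthase, also overlapped through tumour 2, with log2 fold changes of −1.06 and −1.26 beside −1.29 for Dhcr7 (edgeR adjusted p = 0.234, 0.286 and 0.227). Expected counts of Fdft1 were not whole in 9 libraries. Ctsb, at 479 to 1342 CPM, overlaps Fdft1 on the opposite strand by 774 bases, so the level of Fdft1 is uncertain.

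Sc5d, the lathosterol desaturase, differed from the other sterol enzymes, an example chosen after its values were seen. It stood at 280.2, 85.2 and 149 CPM in wild types, at 267, 97.1 and 341 in hyperplasias and at 347, 103 and 490.0 in tumours. Tumours 1 and 3 and hyperplasia 3 were the 3 highest libraries, and tumour 2 lay between wild types 2 and 3. The fitted difference of 0.87 (SE 0.65, edgeR adjusted p = 0.501) did not pass, and the groups overlapped.

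**Figure D2:**
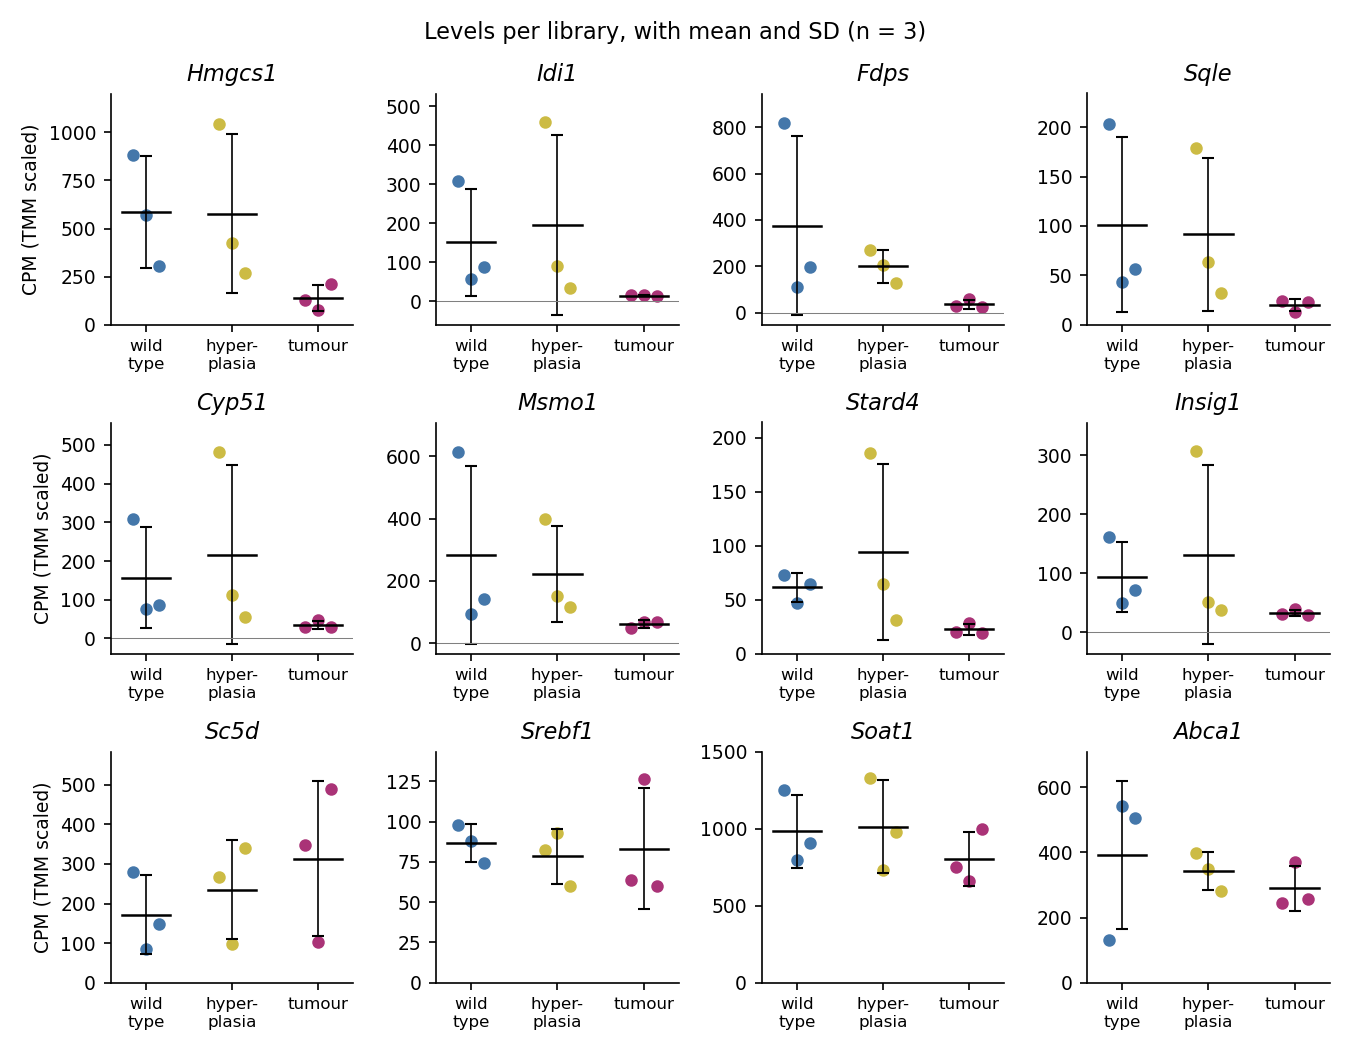
Each panel shows 1 gene, with CPM on the vertical axis and the 3 groups on the horizontal axis, points for single libraries (left to right replicates 1, 2 and 3), and bars for the mean and SD (n = 3). Idi1 lies between 13.8 and 15.9 CPM in the 3 tumours, below all 6 other libraries, while Sc5d, Srebf1, Soat1 and Abca1 overlap between groups.

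The 5 regulators differed among themselves. Insig1, which retains SCAP in the endoplasmic reticulum and is itself induced by SREBP, stood at 162, 49.9 and 71.2 CPM in wild types, at 307, 50.4 and 37.5 in hyperplasias and at 30.1, 38.9 and 29.2 in tumours. As for 11 of 17 enzymes, all tumours lay below all wild types (13.4% of all genes). Wild type 1 was the highest of its group, as for 17 of 17 enzymes (42.1% of all genes). Hyperplasia 1 was the highest of its group, as for 13 of 17 enzymes (30% of all genes). The log2 fold change was −1.53 (SE 0.76, edgeR adjusted p = 0.306). Srebf2, the SREBP that chiefly drives cholesterol synthesis, stood at 155, 142 and 153 CPM in wild types, at 228, 173 and 101 in hyperplasias and at 118, 92.4 and 89.3 in tumours. The tumours lay below all wild types, by a smaller margin than for Insig1 (log2 fold change −0.59, SE 0.29, edgeR adjusted p = 0.293). These 2 genes, and the other regulators given here, were chosen after their values were seen.

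Srebf1, the SREBP of fatty acid synthesis, averaged 86.8 ± 11.8 CPM among wild types, 78.5 ± 16.9 among hyperplasias and 83.3 ± 37.4 among tumours (SD, n = 3), with tumour 2 highest at 126 CPM. Its fitted difference was −0.06 (SE 0.32, edgeR adjusted p = 0.943). Scap, the escort of SREBP, stood at 418, 286 and 277 CPM in wild types, at 269.8, 319.5 and 242 in hyperplasias and at 273, 825 and 338 in tumours. Tumour 2 was the highest of all 9 libraries, and the other 2 tumours lay within the range of the 3 wild types or just below it. Insig2, the second INSIG, stood higher by 0.49 (SE 0.27) and Scap by 0.55 (SE 0.41) on the log2 scale (edgeR adjusted p = 0.351 and 0.494), and both overlapped between groups. Expected counts of Scap were not whole in 9 libraries, so its level is uncertain.

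Of the 4 uptake and transport genes, 3 stood lower in tumours (49.1% of all genes) and 1, Stard4, had all tumours below all wild types (13.4% of all genes). Stard4, a soluble carrier that moves cholesterol between membranes and is itself an SREBP target, stood at 73.3, 46.8 and 64.5 CPM in wild types, at 186, 64.8 and 31.6 in hyperplasias and at 20.1, 28.8 and 19.3 in tumours. Tumours lay below all 6 other libraries, and hyperplasia 1 stood far above the rest. The log2 fold change was −1.44 (SE 0.55, edgeR adjusted p = 0.19). Npc2 encodes a protein that hands cholesterol to NPC1 within the lysosome. Npc2 stood at 743, 195 and 238 CPM in wild types, at 333, 258 and 246 in hyperplasias and at 184, 315 and 175 in tumours. Wild type 1 was the highest library, and tumour 2 lay above wild types 2 and 3, so the groups overlapped (log2 fold change −0.80, SE 0.49, edgeR adjusted p = 0.41). Npc1 differed by −0.46 (SE 0.31, edgeR adjusted p = 0.453), and its expected counts were not whole in 8 libraries.

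Values per library of Lrp1, Soat1 and Abca1 were likewise chosen for printing after they were seen. Lrp1, a large lipoprotein receptor, stood at 385, 1699.5 and 1081 CPM in wild types, at 1202, 1459 and 974 in hyperplasias and at 1323, 651 and 1401 in tumours. Wild type 1 and tumour 2, the libraries with relatively fewer reads of long genes, were the lowest of the 9, and the fitted difference was 0.09 (SE 0.51, edgeR adjusted p = 0.946). Soat1, which esterifies cholesterol for storage in lipid droplets, stood at 1250.1, 796 and 906 CPM in wild types, at 1330.1, 730.0 and 981 in hyperplasias and at 751, 658 and 999.8 in tumours. The 3 groups overlapped, with a log2 fold change of −0.29 (SE 0.32, edgeR adjusted p = 0.658).

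The efflux pumps Abca1 and Abcg1, which pass cholesterol to lipoproteins outside the cell, stood 0.44 and 0.75 lower in tumours on the log2 scale (SE 0.47 and 0.35, edgeR adjusted p = 0.651 and 0.275). Abca1 stood at 130.05, 543 and 504 CPM in wild types, at 398, 350.4 and 281 in hyperplasias and at 245, 369 and 256 in tumours. All tumours lay below wild types 2 and 3 for both pumps, where 21.3% of all genes did. Wild type 1, however, lay below all tumours for Abca1 and among them for Abcg1. Abca1 is a long gene (transcript length 10182 bases), and wild type 1 had relatively fewer reads of long genes. The cause of the low Abca1 level in wild type 1 was not tested.

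**Figure D3:**
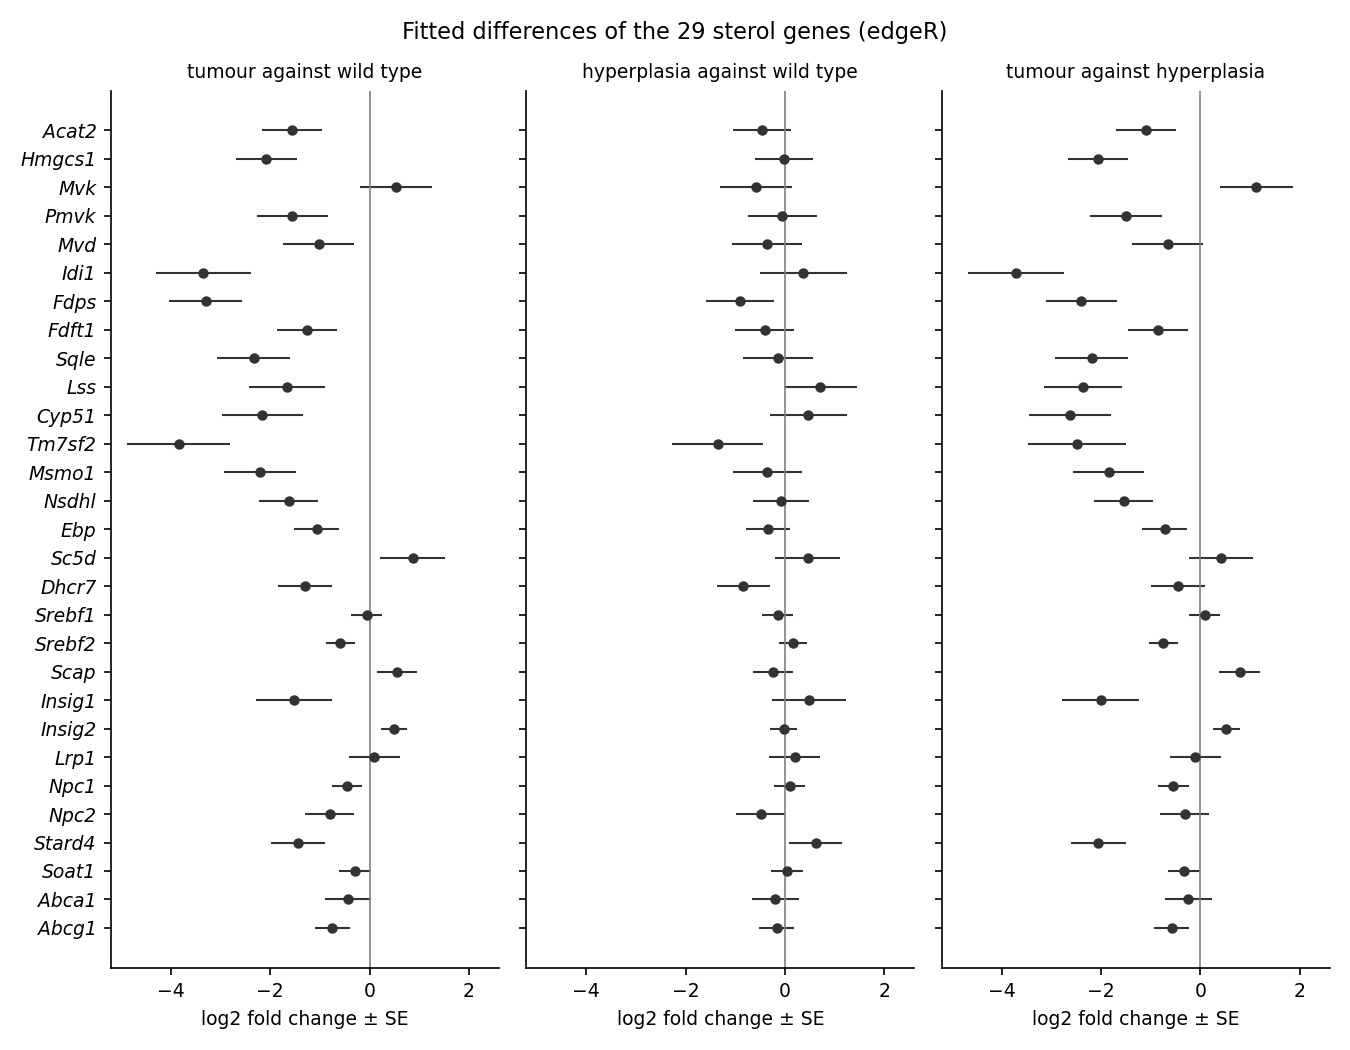
The horizontal axis gives the fitted log2 fold change of each of the 29 genes, with bars of 1 standard error, in 1 panel for each of the 3 comparisons, whose libraries are shared. Tumour values lie below 0 for 24 of 29 genes against wild type and for 24 of 29 against hyperplasia, and the hyperplasia panel is centred near 0.

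Tumours were also compared with hyperplasia, which has the same labelled genotype and shares the tumour libraries with the comparison above. The same direction was seen for most synthesis enzymes, with the deepest differences in Idi1, Cyp51, Tm7sf2 and Fdps, and again no gene passed. The fitted difference was below 0 for 24 of 29 genes and 15 of 17 enzymes, where 46% of all genes were below 0. The median was −0.74 for the 29 genes and −1.55 for the enzymes, against 0.05 for all genes tested. With edgeR, 0 of 29 genes passed against a background of 0.185% (30 genes, all lower). At an unadjusted p under 0.05, 12 of 29 were lower and 0 higher, where 9.39% of all genes were lower, 4.71% higher and 14.1% either.

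The 3 tumours lay below all 3 hyperplasias for 9 of 29 genes and 7 of 17 enzymes, and above them for 0, where the share over all genes was 12.4% below, 9.54% above and 21.9% either way. The log2 fold changes were −3.71 for Idi1 (SE 0.97), −2.05 for Stard4 (SE 0.56), −2.06 for Hmgcs1 (SE 0.61) and −2.40 for Fdps (SE 0.71), with edgeR adjusted p between 0.156 and 0.199. Cyp51, Lss, Sqle and Nsdhl stood 2.62, 2.36, 2.19 and 1.55 lower on the log2 scale (edgeR adjusted p between 0.224 and 0.293). DESeq2 called 7 of the 29, all lower (Hmgcs1, Idi1, Fdps, Sqle, Lss, Cyp51 and Stard4), where it called 816 of all 16213 genes (119 higher and 697 lower). With limma-voom, 0 of the 29 were called, against 4 of all genes. The difference was smaller without hyperplasia 1. The median was then −0.43 for the 29 genes and −0.81 for the enzymes. By edgeR, 4 of the 29 genes instead of 12 then had an unadjusted p under 0.05, where 1310 of all 16631 genes did. That count was 7 without tumour 2, where 2089 of all 16703 genes did.

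Hyperplasia and wild type were not told apart for any sterol gene, and their comparison shares the wild-type libraries with the first. With edgeR, 0 of 29 genes passed (background 0%, as no gene of the 16213 passed), 0 had an unadjusted p under 0.05 (background 3.53%, with 1.41% higher and 2.12% lower), and for 0 the groups did not overlap (background 9.81%, with 4.63% higher and 5.18% lower). DESeq2 and limma-voom called 0 of the 29 as well, where they called 19 and 0 of all genes. The median log2 fold change was −0.14 for the 29 genes and −0.34 for the enzymes, with 19 of 29 below 0, where 50.3% of all genes were. The smallest unadjusted p belonged to Dhcr7 (log2 fold change −0.84, SE 0.54), Tm7sf2 (−1.36, SE 0.92), Fdps (−0.90, SE 0.68) and Stard4 (0.61, SE 0.54), all with an edgeR adjusted p of 0.999. The sign depended on single libraries. Without wild type 1 the enzyme median was 0.55 and 7 of 29 genes were below 0, and without hyperplasia 1 it was −1.01 with 26 of 29 below 0. On the log2(TPM + 1) scale 11 of 29 were below 0.

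The spread within groups was wide and had a common order across the enzymes. Wild type 1 was the highest wild type for 17 of 17 enzymes (42.1% of all genes), hyperplasia 1 the highest hyperplasia for 13 of 17 (30% of all genes), and hyperplasia 3 the lowest of its group for 16 of 17 (33.7% of all genes). The highest over the lowest library had a median ratio of 3.77 among wild types, 4.46 among hyperplasias and 2.08 among tumours over the 17 enzymes. Hyperplasia 1 lay above wild types 2 and 3 for 16 of 17 enzymes (33.7% of all genes), and hyperplasia 3 lay below all 3 wild types for 14 of 17 (20.2% of all genes). Relative to each gene's mean over the 9 libraries, the enzyme median was 1.66, −0.10 and 0.16 on the log2 scale in wild types 1 to 3, 1.28, 0.38 and −0.60 in hyperplasias 1 to 3, and −0.94, −0.95 and −1.06 in tumours 1 to 3. The 3 tumours were close to each other and below every other library, hyperplasia 3 came nearest to them, and wild type 1 and hyperplasia 1 stood highest.

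The enzymes are shorter than the other members (median transcript length 2181 against 3958 bases), and wild type 1 favoured short genes. After the length trend of each library was removed, the enzyme median of wild type 1 was 1.67, beside 1.66 before, and the tumours stood at −0.88, −0.85 and −0.99. The cause of the high enzyme levels in wild type 1 was not tested. In TPM, which the authors scaled for length, all tumours lay below all wild types for 15 of 17 enzymes, where 14.5% of all genes did, beside 11 of 17 in CPM. Against wild types 2 and 3 alone the count in CPM was 11 of 17, where 21.3% of all genes did.

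Per length, Soat1 was the most abundant of the 29 transcripts in wild type, at 633 ± 224 TPM (SD, n = 3), followed by Fdps at 455 ± 359 TPM, Hmgcs1 at 270.1 ± 83.8 TPM, Lrp1 at 245 ± 93.6 TPM and Msmo1 at 228 ± 199.8 TPM. Over the 3 wild types each of these 5 genes overlapped with its neighbours in the order, while the range of Soat1 lay wholly above those of Hmgcs1 and Lrp1. The lowest were Stard4 at 19.8 ± 3.92 TPM, Lss at 12.6 ± 1.27 TPM and Abcg1 at 9.86 ± 5.998 TPM. In tumours Soat1 was again first at 546 ± 214 TPM, Lrp1 and Scap took places 2 and 3, while Fdps moved from place 2 to 9, Idi1 from 9 to 25 and Tm7sf2 from 19 to 29. Soat1 held place 1 and Tm7sf2 place 29 in each of the 3 tumours. The places between them differed by tumour: Sc5d took place 3 in tumours 1 and 3 and place 9 in tumour 2, where Mvk was the highest enzyme in place 5, and Lrp1 took place 2 in tumours 1 and 3 and place 4 in tumour 2.

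**Figure D4:**
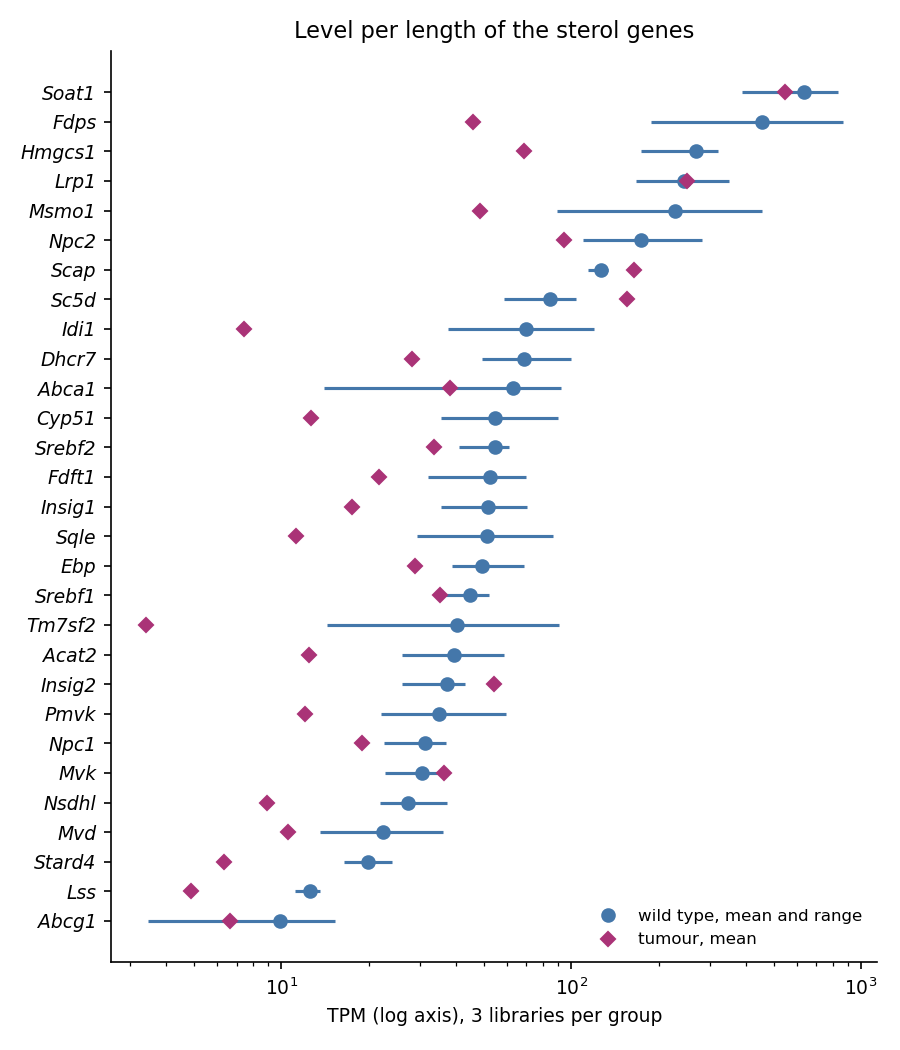
The horizontal axis gives TPM on a log scale for each of the 29 genes, in the order of their wild-type mean, with circles and lines for the mean and range of 3 wild types and diamonds for the mean of 3 tumours. The tumour mean lies left of the whole wild-type range for 20 of 29 genes, among them Fdps, Hmgcs1, Idi1 and Tm7sf2, within it for 6, and right of it for 3 (Scap, Sc5d and Insig2).

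The genes that use and sense cholesterol were read from lists named for the pathway. Of 11 genes of steroid hormone synthesis from cholesterol, 1 passed lower and 0 higher in tumours against wild type (background 1.25% lower). The fitted difference was below 0 for 8 of 11 (49.1% of all genes), with a median of −1.54. Cyp11a1, which cuts the cholesterol side chain in mitochondria, stood at 9573, 5533 and 5248 CPM in wild types, at 4766, 6632 and 1959 in hyperplasias and at 642, 1042 and 459 in tumours. Its log2 fold change was −3.25 (SE 0.56; adjusted p = 0.0404 by edgeR), and tumours lay below all 6 other libraries. The call of Cyp11a1 was lost with a term for the shared title stem (edgeR adjusted p = 0.0523) and when any 1 library other than hyperplasia 1 or 3 was left out (0.0504 to 0.127). Star, which brings cholesterol into mitochondria (−1.93, SE 0.45), and Fdxr, the reductase that feeds electrons to CYP11A1 (−1.54, SE 0.46), had edgeR adjusted p = 0.0647 and 0.111. Hyperplasia 3 was the lowest of the hyperplasias for all 3 genes, as it was for the enzymes.

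Of 9 genes that process SREBP or degrade its partners, 0 passed (edgeR), with a median of 0.18. At an unadjusted p under 0.05, 1 was higher and 0 lower, where 8.41% of all genes were higher and 11.7% lower. Mbtps1, the first protease that cuts SREBP, stood 0.93 higher in tumours (SE 0.26, edgeR adjusted p = 0.099), from 159, 217 and 263 CPM in wild types to 406, 487 and 322 in tumours, groups that did not overlap. Of 7 genes of the oxysterol receptors LXR and their targets, 1 passed lower (1.25% of all genes), Abcg4, a sterol transporter. Abcg4 fell by 2.67 (SE 0.53, edgeR adjusted p = 0.0471) from 3.48, 8.89 and 10.1 CPM to 1.26, 1.07 and 1.18 CPM. The call of Abcg4 was lost with the stem term (edgeR adjusted p = 0.105) and when any 1 library other than hyperplasia 3 was left out (0.0587 to 0.129). Scd1, a fatty acid desaturase, and Mylip, a ubiquitin ligase for lipoprotein receptors, differed by −2.36 and 0.79 (edgeR adjusted p = 0.153 and 0.192). Of 7 genes of lipid droplets and ester hydrolysis, 0 passed (edgeR, 4 lower and 0 higher at an unadjusted p under 0.05, where 11.7% of all genes were lower). Nceh1 and Lipa, which free cholesterol from its esters, differed by −0.83 and −0.97, and Soat2, the second esterifying enzyme, by −3.17 at no more than 1.89 CPM in any library and at 0.0662, 0 and 0.252 CPM in tumours, where its fold change is uncertain (edgeR adjusted p = 0.1, 0.153 and 0.138).

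By summed level, luteal, macrophage, adipocyte, oocyte and smooth muscle markers stood lower in tumours than in wild types. The sums of theca, endothelial and surface epithelium markers overlapped between tumours and wild types. Of the 7 granulosa genes, 7 were fitted above 0 in tumours against wild type and 0 passed (edgeR). At an unadjusted p under 0.05, 2 of them were higher, where 8.41% of all genes were. The summed level of 7 luteal genes was 7389 to 19320 CPM among wild types, 6343 to 11960 among hyperplasias and 1001 to 1550 among tumours. In tumours against wild type 7 of 7 were lower (49.1% of all genes) and 3 passed (Ptgfr, Prlr and Cyp11a1), where 1.25% of all genes passed lower. No gene of any list passed with the stem term, or without wild type 3 or tumour 3. Luteal and steroid synthesis lists share Cyp11a1 and Star. Per library, the luteal median relative to the 9 libraries was 2.05, 0.33 and 1.14 in wild types, 1.54, 1.36 and 0.08 in hyperplasias and −2.32, −3.01 and −1.41 in tumours. By this median, wild type 1 was highest and hyperplasia 3 lowest in their groups for luteal genes as for the synthesis enzymes. Hyperplasia 2, however, stood near hyperplasia 1 for the luteal genes. Ptgfr, Prlr, Lhcgr, Cyp11a1 and Star kept this order of wild type 1 and hyperplasia 3. Akr1c18 was instead highest of its groups in wild type 3 (1242 CPM) and hyperplasia 3 (1194 CPM). Sfrp4 stood higher in hyperplasia 3 (2025 CPM) than in hyperplasia 2 (1976 CPM). The part of luteal cells in the lower sterol genes was not tested.

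The summed level of 7 macrophage genes was 246 to 287 CPM among wild types, 209 to 253 among hyperplasias and 98.8 to 165 among tumours. Of these genes 6 of 7 were lower (49.1% of all genes) and Itgam passed, where 1.25% of all genes passed lower. The summed level of 6 adipocyte genes was 62.9 to 127, 21.7 to 52.8 and 13.1 to 18.3 CPM, with 1 of 5 tested genes passing lower and Adipoq, Cfd, Retn and Lep at 0 in all 3 tumours. That of 7 oocyte genes was 143 to 179, 3.12 to 82.2 and 1.43 to 4.88 CPM, with 4 passing lower and Zp2, Zar1 and Nlrp5 at 0 in all 3 tumours. The 5 theca genes summed to 155 to 453 CPM among wild types, 117 to 467 among hyperplasias and 319 to 419 among tumours, ranges that overlapped. The summed level of 5 smooth muscle genes was 851 to 1751, 1756 to 4299 and 269 to 731 CPM, that of 5 endothelial genes 359 to 383, 278 to 427 and 218 to 469.96 CPM, and that of 5 surface epithelium genes 196 to 199.9, 181 to 540.1 and 1.17 to 1303 CPM in the 3 groups in the same order. No gene of these 4 lists passed in tumours against wild type. The part of these cells in the sterol gene differences was not tested.

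**Figure D5:**
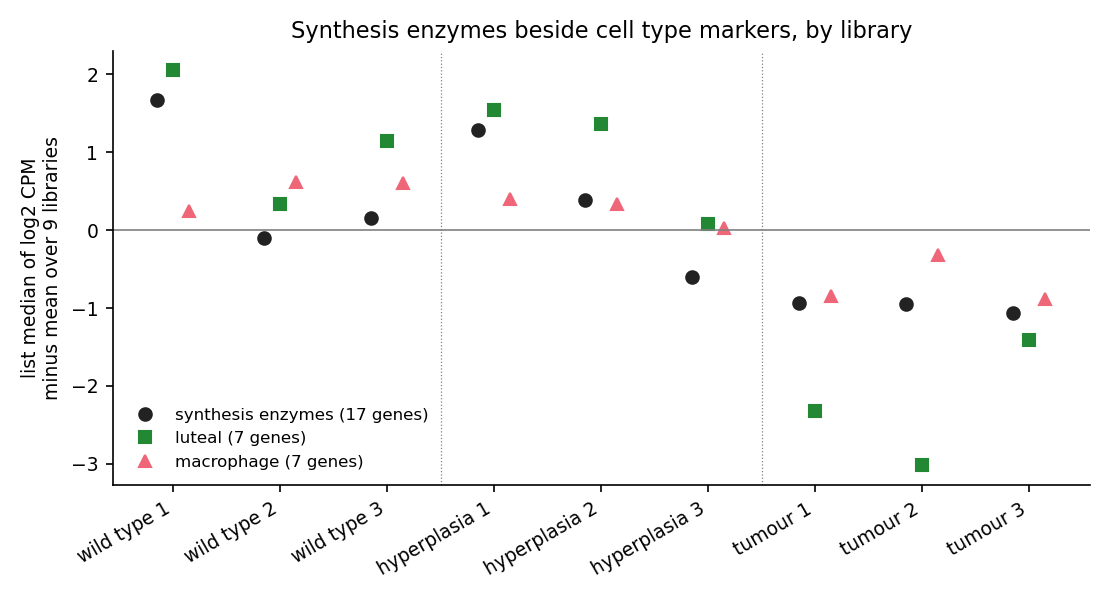
The vertical axis gives the median log2 CPM of a list minus each gene's mean over the 9 libraries, and the horizontal axis the libraries, with circles for 17 synthesis enzymes, squares for 7 luteal genes and triangles for 7 macrophage genes. Enzymes stand at 1.66 in wild type 1, 1.28 in hyperplasia 1 and −0.60 in hyperplasia 3, and from −1.06 to −0.94 in the tumours, where the luteal genes stand from −3.01 to −1.41.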

How the data were processed

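RNA was extracted from dissected ovaries with Trizol and sequenced from a stranded TruSeq mRNA kit, per the labels' protocols. Tools listed in the submitters' processing notes are RSEM 1.3.1, STAR 2.7.1a, Picard 2.8.1 and FastQC, with the build GRCm38. The sources used here do not state whether counting used strand. Per the file headers, the authors deposited for each library RSEM expected counts (not normalised), TPM values and FPKM values. The deposited FPKM values were not used. Identifiers (55536, all matched) were named from GENCODE M21, a release inferred from them.

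Expected counts were rounded and tested with edgeR 4.0.16 (R 4.3.3): TMM scaling (factors 0.797 to 1.078), filterByExpr (minimum count 10, minimum total 15), leaving 16213 genes, 1 fit over 9 libraries with a coefficient per group, the quasi-likelihood test, and Benjamini-Hochberg adjustment over all genes, with calls at 0.05. The common dispersion corresponded to a biological coefficient of variation of 0.432. Samples were grouped by the labelled disease state. The smallest chi-square per degree of freedom between 2 libraries was 25.0 (wild type 2 and hyperplasia 2), followed by 29.8 (hyperplasia 3 and tumour 3). By these values no library was a copy of another, and each was counted once. The check cannot tell whether libraries came from separate animals. The fit was tested on simulated data with known changes. Alternatives were DESeq2 1.42.0, limma 3.58.1 (voom, and log2(TPM + 1) or log2(TPM + 0.1) with a mean TPM of at least 1), another scaling, no filter, removal of the length trend, a term for the shared title stem, only the 2 groups compared, and leaving out each library. Leaving out wild type 1 and tumour 2 together was added after seeing the data. Gene members and lists were chosen with earlier results of these data known. By the naming rule, values per library are given for the 8 members with the smallest p in each comparison, other members by range and counts, and up to 3 genes per pathway list. Members and Ggps1 given values outside this rule are named in the text as chosen after their values were seen. Promoters are from RefSeq (GRCm38.p6).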

Additional observations from a re-analysis of the deposited data

How the results depend on the processing

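The labels give no replicate numbers, so no fit paired by number was run, but the title stem shared by hyperplasia 3 and tumour 3 was fitted as a term. Of the sterol genes, 6 passed with DESeq2, 3 without the filter on low counts (Idi1, Fdps and Tm7sf2), 1 with log2(TPM + 1), 1 with log2(TPM + 0.1) and 1 after removal of the length trend (Fdps in each), and 1 when only the 2 groups were fitted (Idi1) in tumour against wild type, all of them synthesis enzymes and lower. In tumour against hyperplasia 7 passed with DESeq2, 6 of them enzymes, and 1 with log2(TPM + 0.1) (Fdps). None passed in hyperplasia against wild type under any alternative, in any comparison when 1 library was left out, or with voom, DESeq2 size factors or the stem term. The count over all genes in tumour against wild type, 259, was 1747 with DESeq2, 726 without the filter and 855 without the length trend. It was 293 with log2(TPM + 1), 327 with log2(TPM + 0.1) and 346 with 2 groups. With the stem term it was 0, and without wild type 1 and tumour 2 it was 8. When 1 library was left out it ran from 0 (without wild type 3 or tumour 3) to 404 (without hyperplasia 3). In tumour against hyperplasia it was 30, and 816 with DESeq2, 4 with voom, 199 without the filter, 58 and 105 with log2(TPM + 1) and log2(TPM + 0.1), 164 without the length trend, 12 with the stem term, 1 with 2 groups, 0 without both libraries and 0 to 128 with 1 left out. In hyperplasia against wild type it was 0, and 19, 2, 1, 3 and 2 with DESeq2, no filter, log2(TPM + 1), 2 groups and without both libraries, and 0 to 3 with 1 left out. The enzyme median there was 0.55 without both libraries and −1.01 to 0.55 with 1 left out. With log2(TPM + 1) and log2(TPM + 0.1) the median of all genes was −0.23 and −0.27 in tumour against hyperplasia, −0.11 and −0.13 in tumour against wild type, and 0.14 and 0.16 in hyperplasia against wild type. The causes were not tested. Over alternatives the enzyme median stayed between −1.89 and −0.94 in tumour against wild type and between −1.96 and −0.81 in tumour against hyperplasia. With 3 libraries per group, differences of the size seen in Mvk, Sc5d and Scap were not resolved from the spread of the libraries. The deepest differences below 0, in Tm7sf2, Idi1 and Fdps, did not pass in the main edgeR fit either.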

Other observations

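Side branches of the mevalonate pathway and neighbouring lipid genes were read from lists in the same fit, tumour against wild type. Of 8 genes that draw on isoprenoids for prenylation, dolichol and coenzyme Q, 0 passed (edgeR), and the median was −0.06 beside −1.63 for the 17 synthesis enzymes. At an unadjusted p under 0.05, 1 was higher and 0 lower, where 8.41% of all genes were higher and 11.7% lower. Ggps1, which makes geranylgeranyl diphosphate from the product of Fdps, differed by −0.08 (SE 0.24, edgeR adjusted p = 0.895), an example chosen after its values were seen. Fntb, a subunit of farnesyltransferase, stood 0.49 higher (SE 0.22, edgeR adjusted p = 0.243).

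Of 9 genes of fatty acid synthesis known as SREBP1 targets, 8 were tested and 0 passed (edgeR, 2 lower and 0 higher at an unadjusted p under 0.05), with a median of −0.78. At that unadjusted p, 11.7% of all genes were lower and 8.41% higher. Me1, malic enzyme, stood at 1517, 2609 and 1287 CPM in wild types, at 1089, 3533 and 951 in hyperplasias and at 401, 445 and 546 in tumours. Its tumours lay below all other libraries (−1.96, SE 0.54, edgeR adjusted p = 0.0931), but hyperplasia 2 and wild type 2 were the highest of their groups, unlike in the cholesterol enzymes. Fads1 and Acly, a desaturase and the enzyme that supplies cytosolic acetyl-CoA, differed by −1.18 and −0.52 (edgeR adjusted p = 0.202 and 0.308), with all tumours below all wild types. Of 10 sterol transfer genes 0 passed (edgeR, 1 higher and 0 lower at an unadjusted p under 0.05), with a median of −0.19, and Osbpl2, an oxysterol-binding protein relative, stood 0.70 higher (SE 0.21, edgeR adjusted p = 0.12).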
